A study of Saccharomyces cerevisiae with 10 samples.

Results

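Budding yeast (Saccharomyces cerevisiae) carries many annotated reading frames that have a systematic identifier but no gene name. The 125 frames described here are those of them whose reads were raised after 1.5 h in concentrated potassium chloride. They were chosen by their measured levels. A coding sequence with no entry in the gene column of the deposited table was taken if its mean level was at least 10 CPM (the reads of a frame in every 1000000 of its library, with libraries scaled against each other by the trimmed mean of M-values, TMM) at 1.5 h and at least 2 times its mean at 0 h. The table held 5989 coding sequences, of which 890 had no gene name, so the frames were 125 of 890 and of 5989 in all. Values at 0 h and 1.5 h, and every difference that includes either time, are therefore given as description with no test.

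All cells were wild type BY4741, a laboratory strain, kept in SC medium at 30 °C until mid-log phase, at an OD600 of 0.4 to 0.5. The salt was KCl at 1.5 M, and a harvest followed each 30 min until 2 h. The groups are 0 h (no added salt, the controls), 0.5 h, 1 h, 1.5 h and 2 h in KCl, with 2 libraries each from replicate time series called a and b. RNA was poly(A)-selected and copied with random primers, and 1 strain in 1 salt dose was studied, with no mutant among the libraries used here. Library totals ran from 3372373 to 4913739 reads in series a, and in series b from 4676814 at 0 h to 7851019 to 8325291 later, so the b libraries after 0 h were the deeper ones.

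As background, a sudden rise in external salt draws water out of yeast cells and activates the high osmolarity glycerol (HOG) pathway, in which the kinase Hog1 enters the nucleus and induces genes for glycerol synthesis and cell protection. The general stress factors Msn2 and Msn4 bind the stress response element AGGGG in many of the same promoters. Many yeast genes known to respond to stress remain of unknown function, and annotations often list them by systematic identifier alone.

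The frames fall into groups by the deposited notes and the R64 reference annotation, assigned with their values known. There were 9 oxidoreductases, 15 other enzymes or enzyme-like proteins, 14 membrane or transport proteins, 8 proteins of protein turnover, 9 regulators, 5 mitochondrial proteins and 6 frames of the ribosomal DNA region, and 59 had no role in either source. Of the 125, 32 carry a name in the R64 gene list. All 125 were matched to R64 by position, and all 125 passed the filter on low counts. That filter was passed in part through the 1.5 h libraries, where the rule required a level.

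Sequences of 5 promoters are shown because these frames carry the responses described below and differ in the motif they hold. Each is the R64 sequence from 250 bases before to 49 bases past the first base of the coding sequence, read 5′ to 3′ on the strand of the frame. Capitals mark AGGGG on either strand (CCCCT on the printed strand) and the octamer TTACGTAA. The windows are chrXIII:9948-10247 (plus strand) for YML131W, chrXIII:448995-449294 (plus) for YMR090W, chrXIV:273566-273865 (minus) for YNL194C, chrIV:521064-521363 (plus) for YDR034W-B and chrXIII:611064-611363 (plus) for YMR175W-A.
YML131W: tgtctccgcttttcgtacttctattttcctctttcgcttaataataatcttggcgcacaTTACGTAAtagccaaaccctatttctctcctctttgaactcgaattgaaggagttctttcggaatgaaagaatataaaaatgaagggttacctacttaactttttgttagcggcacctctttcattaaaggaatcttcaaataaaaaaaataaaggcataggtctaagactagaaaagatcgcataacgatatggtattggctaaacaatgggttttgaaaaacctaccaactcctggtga
YMR090W: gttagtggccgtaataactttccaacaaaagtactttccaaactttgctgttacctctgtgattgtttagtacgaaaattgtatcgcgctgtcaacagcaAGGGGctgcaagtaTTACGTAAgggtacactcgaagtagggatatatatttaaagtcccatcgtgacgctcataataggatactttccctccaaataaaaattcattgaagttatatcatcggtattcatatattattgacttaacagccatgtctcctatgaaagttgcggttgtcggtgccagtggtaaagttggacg
YNL194C: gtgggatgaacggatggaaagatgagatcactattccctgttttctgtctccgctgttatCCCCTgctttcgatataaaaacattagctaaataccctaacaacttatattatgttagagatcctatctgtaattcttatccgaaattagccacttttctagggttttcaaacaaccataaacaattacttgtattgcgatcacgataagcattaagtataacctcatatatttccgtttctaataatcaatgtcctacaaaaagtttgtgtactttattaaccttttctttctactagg
YDR034W-B: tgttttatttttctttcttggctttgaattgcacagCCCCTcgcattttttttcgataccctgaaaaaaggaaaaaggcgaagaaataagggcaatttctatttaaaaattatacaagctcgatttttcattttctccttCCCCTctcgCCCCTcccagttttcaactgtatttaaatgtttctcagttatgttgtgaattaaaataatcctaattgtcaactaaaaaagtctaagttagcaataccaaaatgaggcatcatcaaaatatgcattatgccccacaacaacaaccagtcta
YMR175W-A: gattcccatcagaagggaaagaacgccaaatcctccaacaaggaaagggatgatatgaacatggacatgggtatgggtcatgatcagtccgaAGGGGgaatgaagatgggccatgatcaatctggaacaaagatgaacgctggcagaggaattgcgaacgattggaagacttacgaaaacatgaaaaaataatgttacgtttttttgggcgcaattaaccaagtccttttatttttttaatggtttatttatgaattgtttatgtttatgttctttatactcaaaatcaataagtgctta

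AGGGG was found in 59 of the 125 windows (47.2%), against 33.9% of the 601 named coding sequences past the same thresholds, 25.1% of the unnamed coding sequences with a window and 21.6% of all 5976 coding sequences with a window. YDR034W-B and YGR130C each held 3 copies, and 9 frames (7.2%) held at least 2, against 7.99% of the named set and 2.95% of all. The TATA box TATAAA stood in 44.0% of the frames' windows, 54.9% of those of the named set and 45.2% of all. The proteasome-associated element GGTGGCAAA was in 4 windows (3.2%, against 3.99% of the named set and 1.19% of all), the Yap1-type site TTACTAA in 10 (8.0%, against 6.49% and 7.45%), TTACGTAA in 2 (1.6%, against 1.66% and 0.669%), TGACGTCA in 1 (0.8%, against 0.166% and 0.134%) and a heat shock element in 1 (0.8%, against 1.83% and 0.770%). The pair with TTACGTAA is YML131W and YMR090W. In YMR175W-A the AGGGG lies 158 bases before the start and so inside the coding sequence of SIP18, which ends 58 bases upstream of the frame. Motifs were searched on both strands, TTACTAA and TATAAA can overlap other matches, and a match is only a stretch of letters.

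Taken as medians over the frames, the mean level relative to 0 h was 0.884 times at 0.5 h, 2.05 times at 1 h, 3.24 times at 1.5 h and 2.95 times at 2 h. At 0.5 h 6 frames (4.8%) had at least 2 times their 0 h mean, against 3.0% of the named set, 4.61% of all unnamed and 1.49% of all coding sequences. At 1 h 64 of the 125 (51.2%) had, against 41.9%, 18.4% and 7.8%. The 125 frames together took 0.372% and 0.371% of all reads at 0 h (series a, then b), 0.476% and 0.484% at 0.5 h, 1.35% and 1.31% at 1 h, 2.06% and 1.99% at 1.5 h, then 1.72% and 1.75% at 2 h. Without the 6 frames of the ribosomal DNA region the share was 0.347% in both libraries at 0 h, 0.259% and 0.262% at 0.5 h, and 1.63% in both at 1.5 h. So the other 119 frames held a smaller share of the reads at 0.5 h than at 0 h. The ratio of the 1.5 h mean to the 0 h mean ranged from 2.02 to 156.

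**Figure D1:**
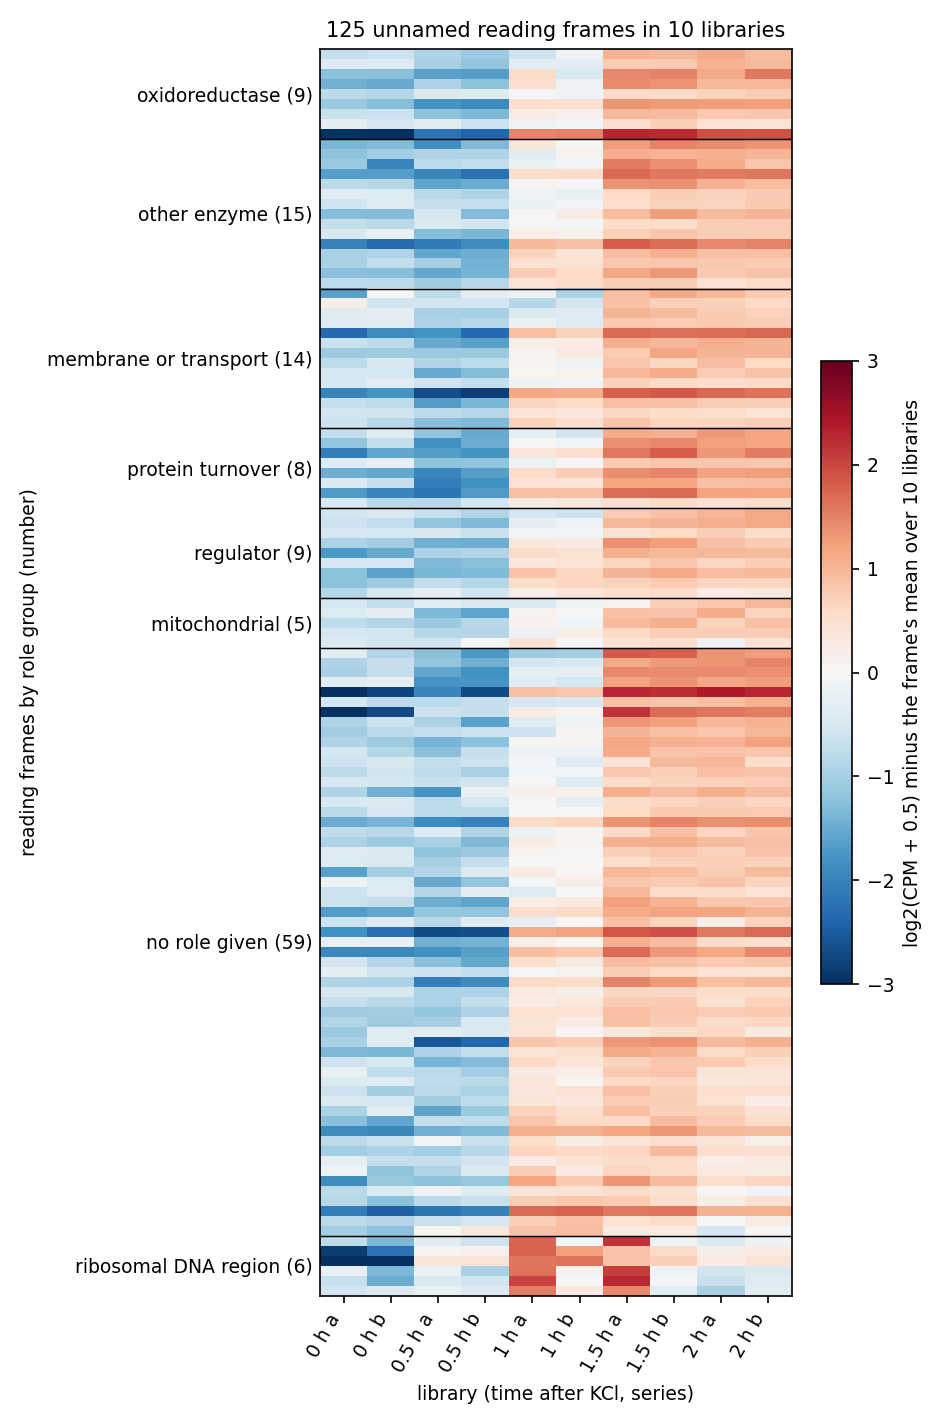
Level of each of the 125 frames (rows, by role group, within a group ordered by the difference between 1 h and 2 h) in the 10 libraries (columns, by time and series). Colour is log2(CPM + 0.5) minus the frame's own mean over the 10 libraries, limited to 3 in either direction. The 0 h and 0.5 h columns are mostly blue and the 1.5 h and 2 h columns mostly red. In the 4 identical frames of the ribosomal DNA region the red is deepest in series a at 1 h and 1.5 h. YLR154C-G and YLR162W of that region are deepest red at 1 h and also red at 1.5 h in both series.

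The highest of the 5 means lay at 1.5 h for 87 frames (69.6%), at 2 h for 31 (24.8%) and at 1 h for 7 (5.6%). In the named set these shares were 63.9%, 32.9% and 3.16%, and over all coding sequences 22.3%, 21.0% and 10.5%. The rule itself favours 1.5 h. The 7 that peaked at 1 h are YLR154C-G, YLR154C-H and YLR162W of the ribosomal DNA region with YJL107C, YGL088W, YML083C and YER039C-A. YLR154C-H is identical in sequence to YLR156C-A, YLR157C-C and YLR159C-A, which are not among the 7. The summed level of these identical frames was highest at 1.5 h in series a (222 CPM) and at 1 h in series b (61.6 CPM). At 0.5 h the mean was below the 0 h mean for 80 of the 125 frames (64%), against 61.2% of the named set, 59.8% of all unnamed and 49.9% of all coding sequences. Both 0.5 h libraries lay below both 0 h libraries for 61 frames (all coding sequences: 37.8%) and above them for 27 (all: 37.2%). At 1 h both libraries lay above both 0 h libraries for 116 frames (all: 38.7%) and below for 4 (all: 37.6%), which are YBR085C-A, YCR007C, YOL163W and YPR145C-A. From 1 h to 1.5 h, 107 frames moved up with no overlap of libraries (all: 41.9%) and 5 moved down (all: 40.8%), namely YGL088W, YJL107C, YLR154C-G, YLR162W and YML083C. From 1.5 h to 2 h, 14 moved up (all: 35.1%) and 67 down (all: 26.2%). By 2 h the libraries lay above those of 0 h for 123 frames (all: 43.4%), the exceptions being YLR154C-H and YLR156C-A, both among the identical frames.

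The contrasts among 0.5 h, 1 h and 2 h compare libraries that did not choose the frames. The test was edgeR's quasi-likelihood F test on the counts of all 5943 coding sequences that passed the filter, with Benjamini-Hochberg adjustment over them and a call at an adjusted p under 0.05. The spread behind each test was estimated from all 10 libraries, 2 per time. The 0 h and 1.5 h libraries, which chose the frames, thus enter the p-values, the TMM factors and the filter. The notes do not say how the cultures of a and b were started, so p-values measure the spread between these libraries. In fits with only the libraries of the 2 times compared, 114 of 114 calls were kept from 0.5 h to 1 h. From 1 h to 2 h 97 of 97 were kept, and from 0.5 h to 2 h 117 of 117.

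Between 0.5 h and 1 h, 114 of the 125 frames rose, 0 fell and 11 were not called. Over all coding sequences tested 32.9% were higher and 32.1% lower. The median log2 fold change of the frames was 1.31, against 0.01 over all tested. DESeq2 called 104 frames higher and 0 lower, and edgeR at an unadjusted p under 0.05 gave 116 higher and 0 lower. The named coding sequences past the same thresholds gave 536 of 601 higher, 6 lower and a median of 1.07. A list of 27 osmotic and general stress genes outside the frames, among them GPD1, CTT1, HSP12 and STL1, gave 27 higher and a median of 3.59.

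Between 1 h and 2 h, 87 frames rose, 10 fell and 28 were not called, beside 35.1% higher and 33.9% lower over all. The median was 0.62 for the frames, 0.75 for the named set (495 higher, 39 lower) and 0.01 over all tested, and 22 of the 27 stress genes were higher and 1 lower. Of the 10 that fell, 5 belong to the ribosomal DNA region, which leaves 87 higher and 5 lower without that region. Without the 1 h library of series a, 6 frames were called lower in place of 10, and DESeq2 also called 6. With libraries scaled by their totals alone, which shifts the median of all tested by 0.29, the split was 106 higher and 6 lower.

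Between 0.5 h and 2 h, 116 frames rose, 1 fell and 8 were not called, beside 43.3% higher and 37.5% lower over all. The median was 1.87, against 1.83 in the named set (597 of 601 higher, 1 lower) and 0.07 over all tested. In the 27 stress genes it was 4.08, with 27 higher. The frame that fell is YGL088W (log2 fold change -0.39 ± 0.16, adjusted p = 0.031). Its value was -0.22 and not called without the 0.5 h library of series b, likewise without the 2 h library of series a, and -0.03 and not called with library totals alone.

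Taking the first contrast with the second, 78 frames rose in both, 26 rose and were then not called, 10 rose and then fell, 9 were called only in the second, upward, and 2 were called in neither (YBL039W-B and YLR159C-A). Rising in both was the pattern of 62.4% of the frames, 72.5% of the named set and 17.8% of all tested. Rising and then not being called was that of 20.8%, 10.1% and 9.04%. Rising and then falling was seen in 8.0%, 6.49% and 6.09%, so the frames lay near the other sets there. Only the second step was called, upward, in 7.2%, 8.82% and 12.6%, and neither step in 1.6%, 0.998% and 14.8%. These shares were not compared by a test. YLR159C-A is identical in sequence to YLR154C-H, YLR156C-A and YLR157C-C, which rose and then fell, so its separate call is not a separate course.

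**Figure D2:**
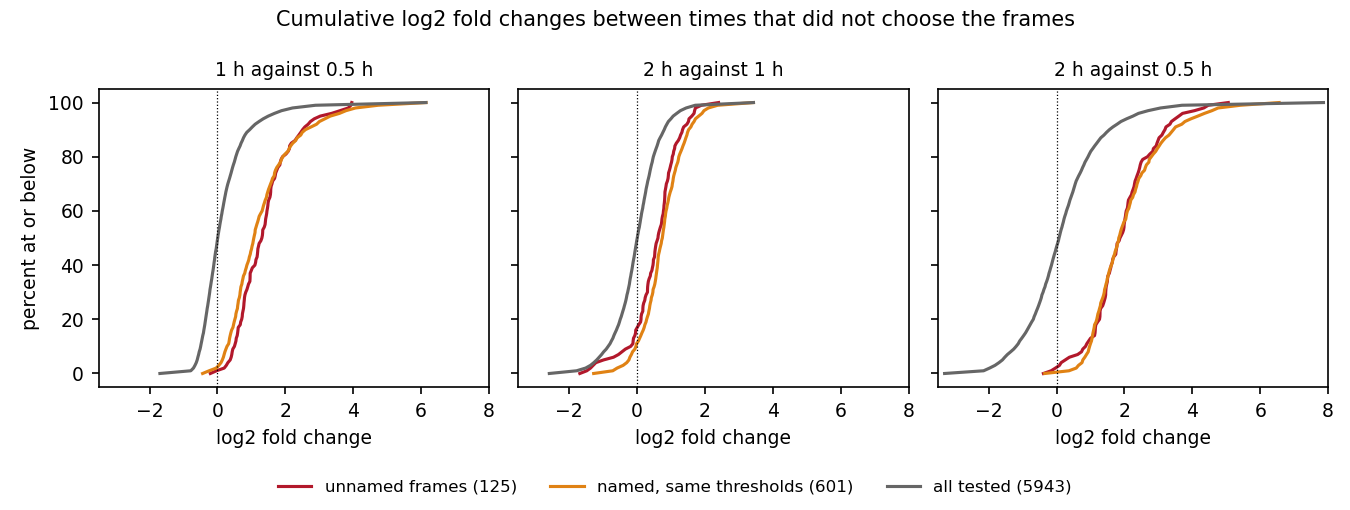
Cumulative distribution of the log2 fold change in the 3 tested contrasts, for the 125 unnamed frames, the 601 named coding sequences past the same thresholds and all 5943 tested. The x axis is the log2 fold change and the y axis the percent of sequences at or below it. The curves of the unnamed and named sets lie close together and to the right of the curve of all tested up to the very top, where the highest value of all tested is larger than that of the unnamed frames in each contrast, with medians of 1.31, 0.62 and 1.87 for the unnamed frames.

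As a scale for the role groups below, 91.2% of the 125 frames and 32.9% of all tested were called higher from 0.5 h to 1 h. From 1 h to 2 h these shares were 69.6% and 35.1%, and from 0.5 h to 2 h 92.8% and 43.3%. No role group was compared with the other frames by a test. All 9 oxidoreductases rose from 0.5 h to 1 h and all 9 rose again from 1 h to 2 h. The strongest in fold is YML131W (chrXIII:10198-11295, plus strand), a protein like the medium-chain dehydrogenases and reductases that the deposited note already describes as induced by osmotic shock. Its level was 18.8 and 10.7 CPM at 0 h (a, then b), 32.3 and 28.6 at 0.5 h, 420.4 and 423 at 1 h, 732 and 715 at 1.5 h, then 577 and 566 at 2 h. No library of 1 h or later came near those of 0 h and 0.5 h. The log2 fold change from 0.5 h to 1 h was 3.81 ± 0.10 (SE, edgeR adjusted p = 1.7e-17), and from 1 h to 2 h it was 0.44 ± 0.07 (adjusted p = 1.5e-05). Its mean at 1.5 h was 49.0 times that at 0 h. YML131W lies 10198 bases from the left end of chromosome XIII.

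YJR096W (chrX:611195-612043) is an aldo-keto reductase that acts on xylose and arabinose. It had 73.9 and 65.6 CPM at 0 h, 45.5 and 42.1 at 0.5 h, 228 and 227 at 1 h, 399 and 385 at 1.5 h, then 384 and 376 at 2 h. The 0.5 h libraries were the lowest, and those of 1.5 h lay just above those of 2 h. The step from 0.5 h to 1 h was 2.39 ± 0.07 on the log2 scale (adjusted p = 2.3e-16).

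YNL134C, an NADH-dependent aldehyde reductase that detoxifies furfural, came later. Its libraries stood at 149 and 149.7 CPM at 0 h, 99.2 and 85.7 at 0.5 h, 158 and 156 at 1 h, 333 and 337 at 1.5 h, then 401 and 383 at 2 h. At 1 h it had only returned to just above the level of unstressed cells, and it was highest at 2 h. Its log2 fold change was 0.78 ± 0.07 from 0.5 h to 1 h (adjusted p = 8.3e-09) and 1.32 ± 0.06 from 1 h to 2 h (adjusted p = 1.5e-13).

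YMR315W, an NADP(H) oxidoreductase under the control of Stb5, and YMR226C, the serine dehydrogenase and carbonyl reductase named ORA1 in R64, are also in this group. YMR315W went from 112 and 114 CPM at 0 h through 74.3 and 69.5 at 0.5 h and 205 and 191 at 1 h to 347 and 341 at 1.5 h and 306 and 312 at 2 h. YMR226C went from 129 and 122 CPM at 0 h through 164 and 172 at 0.5 h, 217 and 202 at 1 h, then 334 and 330.4 at 1.5 h to 354 and 372 at 2 h. YMR226C was thus already above unstressed cells at 0.5 h, where YMR315W was below. From 0.5 h to 1 h the log2 fold changes were 1.46 ± 0.06 for YMR315W and 0.31 ± 0.06 for YMR226C (adjusted p = 1.6e-13 and 0.00015). The other oxidoreductases are the nitronate monooxygenase-like YJR149W, the short-chain dehydrogenases YKL107W and YDL114W, and YJL045W, a minor succinate dehydrogenase isozyme named SDH9. Their ratios of 1.5 h to 0 h ran from 2.04 for YJR149W to 8.31 for YDL114W.

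Of the 15 other enzymes, 15 rose from 0.5 h to 1 h and 13 from 1 h to 2 h, with none falling in either by edgeR or by DESeq2 and none at an unadjusted p under 0.05. YHR033W (chrVIII:175548-176819) is the paralog of PRO1, the glutamate kinase of proline synthesis. Its libraries held 61.1 and 49.4 CPM at 0 h, 57.1 and 65.9 at 0.5 h, 478 and 452 at 1 h, 857 and 789 at 1.5 h, then 661 and 693 at 2 h. The 0 h and 0.5 h libraries overlapped and all later ones were far above them. The log2 fold change was 2.90 ± 0.08 from 0.5 h to 1 h (adjusted p = 1.5e-16) and 0.55 ± 0.07 from 1 h to 2 h (adjusted p = 6.7e-07).

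YMR090W (chrXIII:449245-449928) resembles dTDP-glucose dehydratases. It stood at 53.7 and 53.9 CPM at 0 h, 43.9 and 35.8 at 0.5 h, 247 and 249 at 1 h, 559 and 514 at 1.5 h, then 494 and 519 at 2 h. All libraries of 1 h lay between the early and the late ones. Its log2 fold change was 2.67 ± 0.08 at the first step (adjusted p = 4.8e-16) and 1.03 ± 0.06 at the second (adjusted p = 1.4e-11). Per kilobase of coding length at 1.5 h, where genes can be set side by side, YMR090W stood at 785 CPM per kb, YML131W at 659, YHR033W at 647 and YJR096W at 462, beside a median of 77.7 over the 125 frames and 79.5 over the named set.

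Other members of the group are YJL068C, an S-formylglutathione hydrolase of formaldehyde detoxification, YBR053C, a regucalcin in R64, and YBR284W and YJL070C, which resemble AMP deaminases. Their means at 1.5 h were between 2.07 and 5.88 times those at 0 h.

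**Figure D3:**
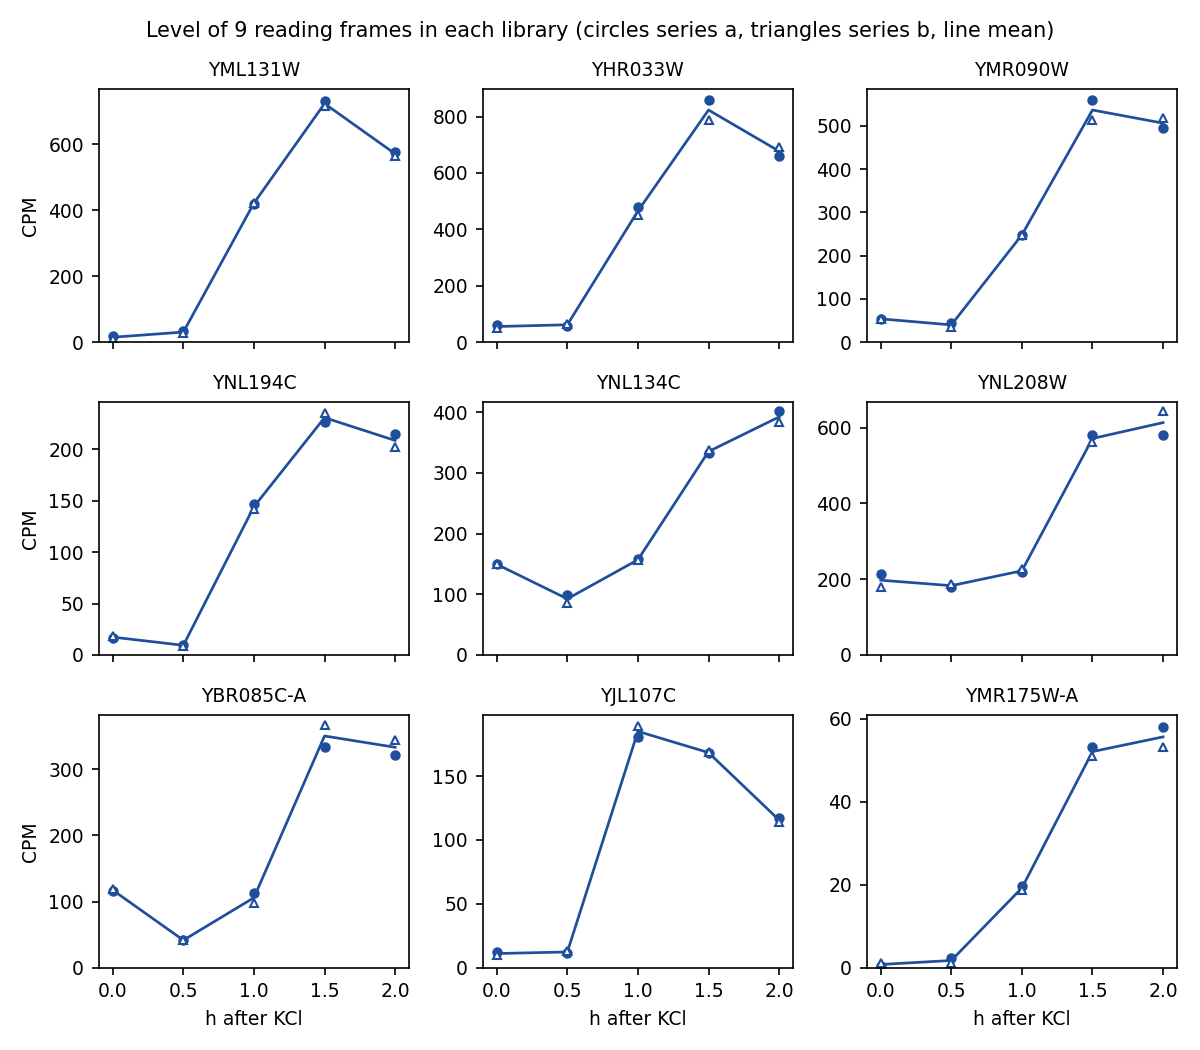
CPM of 9 frames in each library against time after KCl, with circles for series a, triangles for series b and a line through the means. Axes start at 0 and differ between panels. YML131W, YHR033W, YMR090W and YNL194C climb steeply from 0.5 h, YNL134C, YNL208W and YBR085C-A climb mainly after 1 h, YJL107C is highest at 1 h, and YMR175W-A starts near 0.

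Of the 14 membrane or transport proteins, 12 rose from 0.5 h to 1 h, 11 from 1 h to 2 h and 14 from 0.5 h to 2 h. YNL194C (chrXIV:272710-273615, minus strand) is a plasma membrane protein of the Sur7 family, which sits in the membrane furrows called eisosomes. Its libraries gave 16.0 and 18.7 CPM at 0 h, 9.98 and 8.82 at 0.5 h, 146 and 142 at 1 h, 227 and 235 at 1.5 h, then 215 and 202 at 2 h. The 0.5 h libraries lay below those of 0 h and the later ones far above both. The log2 fold change was 3.96 ± 0.10 from 0.5 h to 1 h (adjusted p = 2.2e-17), the largest of the 125 at that step.

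YNL195C, downstream of YNL194C on the same strand with 401 bases between them, followed nearly the same course, with 12.3 and 9.14 CPM at 0 h, 6.501 and 6.65 at 0.5 h, 97.8 and 104 at 1 h, 165 and 171 at 1.5 h, then 135 and 146 at 2 h. It is a paralog of HBT1, and its note gives no function but a promoter shared with YNL194C. Its step from 0.5 h to 1 h was 3.94 ± 0.12 (adjusted p = 5.4e-16). YNL193W, which starts 752 bases from YNL194C in the divergent direction, reached 91.7 and 96.6 CPM at 1.5 h from 46.0 and 46.8 at 0 h, just inside the rule.

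YGR130C is another eisosome component. It was abundant before stress, at 204 and 199 CPM at 0 h and 176 and 167 at 0.5 h, and stood at 403 and 376 at 1 h, 463 and 447 at 1.5 h, then 434 and 401 at 2 h. All libraries from 1 h on lay above the earlier ones. It rose from 0.5 h to 1 h by a log2 fold change of 1.18 ± 0.06 (adjusted p = 2.8e-12) and was not called from 1 h to 2 h (0.10 ± 0.06, adjusted p = 0.13). With scaling by library totals alone that second value was 0.39 and was called.

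YDR034W-B, named CPP3 in R64, is a predicted tail-anchored plasma membrane protein with a cysteine-rich CYSTM module. The frame is 156 bases long. It had 2.56 and 3.66 CPM at 0 h, 3.95 and 2.58 at 0.5 h, 28.3 and 24.5 at 1 h, 49.2 and 48.3 at 1.5 h, then 48.4 and 50.1 at 2 h. The first 4 libraries overlapped, and the last 4 were level. It rose by 3.06 ± 0.20 on the log2 scale from 0.5 h to 1 h (adjusted p = 1.2e-10). The Dal5-family transporter frames YOL162W and YOL163W, with 12 bases between them, were not called from 0.5 h to 1 h and both rose from 1 h to 2 h. They ended at 9.32 to 10.98 CPM at 2 h.

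All 8 proteins of protein turnover rose from 0.5 h to 1 h and 7 of them rose from 1 h to 2 h. YJL144W, named ROQ1 in R64 and noted as a hydrophilin needed to survive drying, had 75.5 and 63.98 CPM at 0 h, 24.8 and 29.3 at 0.5 h, 142 and 139 at 1 h, 237 and 236 at 1.5 h, then 191 and 197 at 2 h. Its 0.5 h level was the lowest of all, and every library from 1 h on lay above those of 0 h and 0.5 h. It rose by 2.34 ± 0.09 (adjusted p = 1.2e-14). YGR066C and YLR149C, the substrate receptors GID10 and GID11 of the GID ubiquitin ligase, had ratios of 11.8 and 7.86 between 1.5 h and 0 h. YGR066C went from 13.0 and 10.7 CPM at 0 h and 9.29 and 13.0 at 0.5 h to 80.8 and 80.3 at 1 h, 139 and 141 at 1.5 h, then 100.7 and 99.2 at 2 h. YGR066C rose by 2.79 ± 0.11 from 0.5 h to 1 h (adjusted p = 4.9e-14).

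Among the 9 regulators, 8 rose from 0.5 h to 1 h, 6 rose from 1 h to 2 h, and 9 rose from 0.5 h to 2 h. The exception at the first step is YBR062C, noted to interact with the osmosensor Msb2. It stood at 29.5 and 32.0 CPM at 0 h, 27.2 and 23.7 at 0.5 h, 30.6 and 28.1 at 1 h, 75.0 and 81.6 at 1.5 h, then 90.7 and 98.9 at 2 h. Its first 3 times lay close together, and it rose from 1 h to 2 h by 1.73 ± 0.09 (adjusted p = 2.3e-12). Of the 5 mitochondrial frames, 3 rose at the first step and 4 at the second.

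The 59 frames with no role include YLR012C and YMR175W-A, which had the largest ratios of 1.5 h to 0 h. From 0.5 h to 1 h 54 of them rose, from 1 h to 2 h 37 rose and 5 fell, and from 0.5 h to 2 h 57 rose and 1 fell. YMR175W-A (chrXIII:611314-611508, plus strand, 195 bases) was nearly silent before stress, at 0.465 and 1.14 CPM at 0 h and 2.32 and 1.22 at 0.5 h. It then stood at 19.7 and 18.7 CPM at 1 h, 53.2 and 50.9 at 1.5 h, then 58.1 and 53.1 at 2 h. The values at 0 h and 0.5 h rest on few reads. At 0 h both libraries together had 7 reads and at 1.5 h 744. Relative to library totals scaled by TMM this was 64.1 times as many (exact 95% counting interval 31.0 to 160). These libraries chose the frame, so the interval describes counting error in a selected ratio and is no test of the rise. The log2 fold change was 3.53 ± 0.25 from 0.5 h to 1 h (adjusted p = 4.0e-10) and 5.06 ± 0.20 from 0.5 h to 2 h (adjusted p = 6.1e-15), the largest of the 125 over that interval.

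SIP18, a hydrophilin gene of osmotic stress, ends 58 bases upstream of YMR175W-A on the same strand. It went from 2.09 and 1.14 CPM at 0 h to 287 and 245 at 1.5 h, and its log2 fold change from 0.5 h to 2 h was 6.19. Whether reads that run past the end of SIP18 were counted for YMR175W-A was not tested.

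YLR012C (chrXII:169982-170281) had 0 and 0.229 CPM at 0 h, 2.55 and 2.44 at 0.5 h, 5.00 and 4.55 at 1 h, 20.8 and 14.8 at 1.5 h, then 13.9 and 13.2 at 2 h. At 0 h there was 1 read in both libraries together and at 1.5 h there were 243. Relative to library totals scaled by TMM this was 147 times as many (counting interval 26.1 to 5815). Here too the interval covers counting error in a selected ratio and is no test. A count of 0 in the 0 h library of series a allows up to 0.645 CPM, taken before TMM scaling. Its rise from 0.5 h to 1 h of 0.92 ± 0.34 passed in edgeR (adjusted p = 0.024), but not in DESeq2 (0.07) and not without any 1 of the 4 libraries of those times (0.053 to 0.12).

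YMR196W (chrXIII:655076-658342), the longest of the frames at 3267 bases, is a cytoplasmic protein. It had 67.8 and 72.9 CPM at 0 h, 51.3 and 46.9 at 0.5 h, 283 and 299 at 1 h, 485 and 535 at 1.5 h, then 494 and 503 at 2 h, and rose by 2.58 ± 0.08 from 0.5 h to 1 h (adjusted p = 1.9e-16). YNL208W, which may associate with ribosomes, was late. It had 214 and 180.3 CPM at 0 h, 179 and 187 at 0.5 h, 219 and 226 at 1 h, 580.3 and 562 at 1.5 h, then 582 and 645 at 2 h. The 1 h libraries of YNL208W lay only just above the highest earlier one, and those of 1.5 h and 2 h lay far above. The log2 fold change was 0.28 ± 0.07 from 0.5 h to 1 h (adjusted p = 0.0028) and 1.47 ± 0.07 from 1 h to 2 h (adjusted p = 4.1e-13).

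YBR085C-A, a small protein of cytoplasm and nucleus, was lower at 0.5 h than in unstressed cells. It had 116 and 119 CPM at 0 h, 41.6 and 41.9 at 0.5 h, 113 and 98.7 at 1 h, 334 and 366 at 1.5 h, then 322 and 345 at 2 h. Both 1 h libraries were still below those of 0 h. It rose by 1.32 ± 0.09 from 0.5 h to 1 h (adjusted p = 2.2e-10) and by 1.68 ± 0.07 from 1 h to 2 h (adjusted p = 4.4e-14).

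The largest rises from 1 h to 2 h were in other frames. YPR145C-A stood at 9.76 and 6.40 CPM at 0 h, 4.88 and 3.39 at 0.5 h, 5.55 and 5.93 at 1 h, 45.0 and 42.9 at 1.5 h, then 32.2 and 29.9 at 2 h, a log2 rise of 2.40 ± 0.19 from 1 h to 2 h (adjusted p = 6.4e-10) after a first step that was not called. YEL073C, beside the left end of chromosome V, rose by 1.95 ± 0.13 (adjusted p = 8.6e-11), from 12.2 and 12.8 CPM at 1 h to 46.3 and 50.4 at 2 h. YNR068C, read through from BSC5 as the end of the BUL3 product, rose by 1.72 ± 0.12 (adjusted p = 9.4e-11), and YJL213W, which may associate with ribosomes, by 1.69 ± 0.10 (adjusted p = 1.1e-11). In each of these frames both 2 h libraries lay above both 1 h libraries.

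The opposite course was seen in YJL107C (chrX:218853-220016, minus strand), which the deposited note describes as induced by Hog1 and Pbs2. It had 12.7 and 9.71 CPM at 0 h, 11.7 and 13.1 at 0.5 h, 181 and 189 at 1 h, 168 and 169 at 1.5 h, then 117 and 114 at 2 h. It was highest at 1 h and all later libraries were lower. It rose by 3.89 ± 0.09 from 0.5 h to 1 h (adjusted p = 6.7e-18) and fell by 0.69 ± 0.06 on the log2 scale from 1 h to 2 h (adjusted p = 5.3e-09). GPD1, the glycerol 3-phosphate dehydrogenase of osmotic stress, also fell over that interval (log2 fold change -0.64). The neighbour PRM10, which shares 4 bases with YJL107C on the same strand, had a ratio of 17.8 between 1.5 h and 0 h, against 15.1 for YJL107C. The deposited note says that both frames are merged in related fungi.

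**Figure D4:**
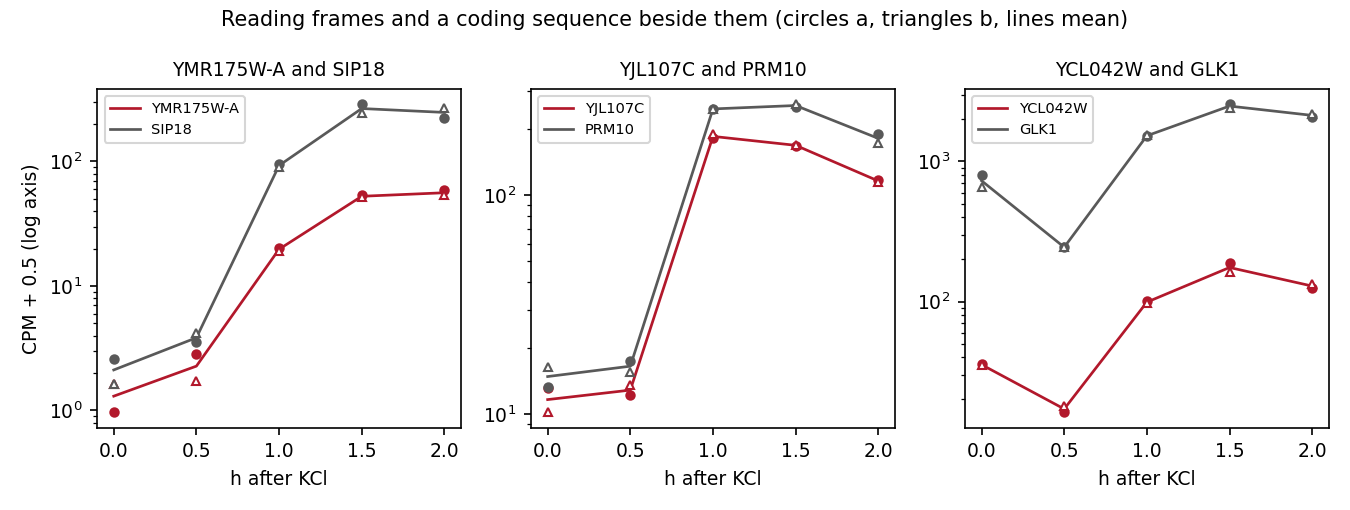
CPM + 0.5 on a log axis against time after KCl for 3 frames (red) and a coding sequence beside or overlapping each (grey), with circles for series a, triangles for series b and lines through the means. YMR175W-A climbs with SIP18, YJL107C with PRM10 and YCL042W with GLK1, each at a lower level than its neighbour.

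Several frames share sequence or position with another gene, and their counts are less certain for that. Another coding sequence is overlapped by 4 of the 125 (3.2%), against 15.5% of all unnamed, 1.83% of the named set and 3.76% of all. A near-identical stretch elsewhere was found for 9 (7.2%), against 19.1% of all unnamed. An RNA gene is overlapped by 6 (4.8%), against 1.8% of all unnamed, 0.333% of the named set and 0.501% of all. YCL042W overlaps the glucokinase gene GLK1 on the same strand by 106 bases, 29.4% of its length. YCL042W had 35.3 and 34.6 CPM at 0 h, 15.7 and 17.6 at 0.5 h, 99.8 and 97.3 at 1 h, 188 and 161 at 1.5 h, then 125 and 132 at 2 h, and rose by 2.54 ± 0.11 from 0.5 h to 1 h (adjusted p = 1.6e-13). GLK1 had the same order of times, from 796 and 659 CPM at 0 h down to 244 and 243 at 0.5 h and up to 2553 and 2415 at 1.5 h. How much of the YCL042W count came from the shared bases was not tested. Of the other overlaps, YHR022C overlaps ECM12 and YPL261C overlaps CUB1 on the opposite strand, by 106 and 2 bases, and the strandedness of the counting is not given in the sources used here.

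YHR054C, a truncated duplicate of RSC30, has a stretch identical over its 1065 bases elsewhere on chromosome VIII, and YNL018C and YNL034W are 97.9% identical over 1839 bases. YHR054C stood at 80.6 and 91.6 CPM at 0 h and 241 and 226 at 1.5 h, and rose by 0.81 ± 0.08 from 0.5 h to 1 h (adjusted p = 2.6e-08). YGL088W shares 216 of its 366 bases with the small nucleolar RNA gene SNR10 on the same strand. YGL088W had 9.53 and 8.23 CPM at 0 h, 20.9 and 25.5 at 0.5 h, 36.4 and 38.4 at 1 h, 24.0 and 23.8 at 1.5 h, then 13.9 and 20.3 at 2 h. It had more than doubled by 0.5 h, and fell by 1.06 ± 0.15 on the log2 scale from 1 h to 2 h (adjusted p = 3.4e-06).

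The 6 frames of the ribosomal DNA region stood apart from the rest. YLR154C-G lies wholly inside a 25S ribosomal RNA gene on the same strand, and YLR162W has 177 bases that are 96.6% identical to 2 stretches of the ribosomal DNA. The frames YLR154C-H, YLR156C-A, YLR157C-C and YLR159C-A are 132 bases long and identical to each other, and 105 of those bases lie inside 5S ribosomal RNA genes on the opposite strand. YLR154C-H and YLR154C-G are printed because they show how much of each frame is ribosomal RNA gene sequence. Capitals mark the bases inside an annotated ribosomal RNA gene. YLR154C-H is at chrXII:468827-468958 and YLR154C-G at chrXII:462522-462671 in R64, both on the minus strand.
YLR154C-H: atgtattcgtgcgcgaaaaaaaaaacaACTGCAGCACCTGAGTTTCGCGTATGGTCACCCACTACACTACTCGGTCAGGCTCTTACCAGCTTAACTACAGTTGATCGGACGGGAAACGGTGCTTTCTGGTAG
YLR154C-G: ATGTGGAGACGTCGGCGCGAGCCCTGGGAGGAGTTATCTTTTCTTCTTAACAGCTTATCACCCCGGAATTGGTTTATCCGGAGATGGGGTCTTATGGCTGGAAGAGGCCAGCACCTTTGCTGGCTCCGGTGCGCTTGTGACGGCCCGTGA

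YLR154C-G was the most abundant frame per length, at 20380 CPM per kb at 1.5 h. Its libraries gave 216 and 200.2 CPM at 0 h, 2291 and 2328 at 0.5 h, 5439 and 5463 at 1 h, 3226 and 2888 at 1.5 h, then 2092 and 2303 at 2 h. It was thus already far above unstressed cells at 0.5 h, when most other frames were not. It rose by 1.24 ± 0.06 from 0.5 h to 1 h (adjusted p = 3.4e-13), fell by 1.31 ± 0.06 from 1 h to 2 h (adjusted p = 1.1e-13), and was not called from 0.5 h to 2 h (log2 fold change -0.07 ± 0.06, adjusted p = 0.25). Under scaling by library totals alone that last value was 0.29 and called.

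YLR162W ran from 17.9 and 27.9 CPM at 0 h through 138 and 143 at 0.5 h to 451 and 310.4 at 1 h, 239 and 197 at 1.5 h, then 150 and 155 at 2 h. It rose by 1.40 ± 0.13 and then fell by 1.29 ± 0.13 (adjusted p = 1.3e-08 and 2.2e-08). TAR1 and RRT15, named coding sequences of the same region, were also lowest at 0 h and highest at 1 h. TAR1 had 348 and 394 CPM at 0 h, 3179 and 3453 at 0.5 h, 5692 and 6014 at 1 h, then 2466 and 2740 at 2 h.

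The 4 identical frames together gave 38.1 and 28.6 CPM at 0 h, 46.2 and 36.6 at 0.5 h, 191 and 61.6 at 1 h, 222 and 49.0 at 1.5 h, then 34.3 and 44.5 at 2 h. The rise at 1 h and 1.5 h was thus large in series a and small in series b. How reads that match several places were shared out is not given. Differences between these 4 frames are therefore not resolved, though they count as 4 in every total here. YLR157C-C was the frame with the largest gap between the series at both times, by 2.05 and 2.33 on the scale of log2(CPM + 0.5). Of these 4 frames 3 were called higher from 0.5 h to 1 h and 3 lower from 1 h to 2 h. Without the 1 h library of series a, 0 were called in either, and DESeq2 called 0 and 1. Over the 6 frames of the region, 0 were called from 0.5 h to 2 h by edgeR, by DESeq2 or at an unadjusted p under 0.05, against 116 higher and 1 lower among the other 119.

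Reads on the 6 frames made up 0.0251% and 0.0240% of all reads at 0 h, 0.217% and 0.222% at 0.5 h, 0.567% and 0.539% at 1 h, 0.428% and 0.363% at 1.5 h, then 0.258% and 0.283% at 2 h. How far reads of ribosomal RNA entered the counts of these frames was not tested.

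**Figure D5:**
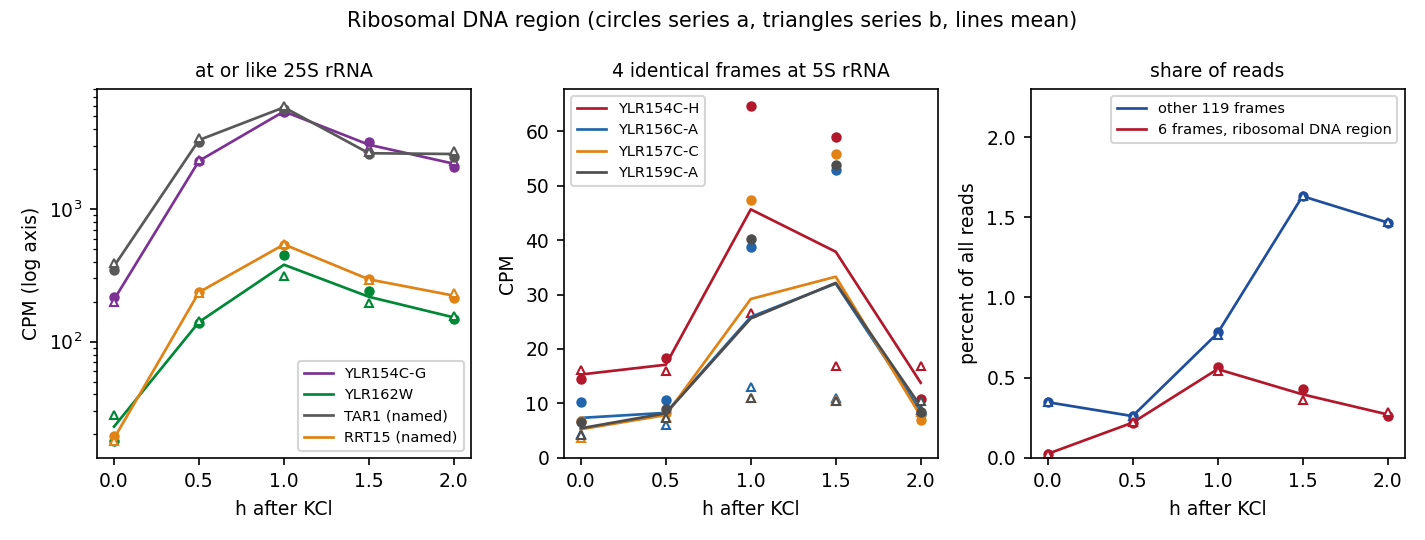
Levels in the ribosomal DNA region against time after KCl, with circles for series a, triangles for series b and lines through the means. On the left YLR154C-G and YLR162W with the named TAR1 and RRT15 (CPM, log axis), in the middle the 4 identical frames (CPM), on the right the share of all reads on these 6 frames and on the other 119. The summed share of the region, most of it YLR154C-G, is highest at 1 h and that of the other frames at 1.5 h, at 1.63% of reads. In the middle panel the circles lie far above the triangles at 1 h and 1.5 h.

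The median length of the frames was 819 bases, against 684 over all unnamed coding sequences, 1254 in the named set and 1197 over all. Of the 125, 22 were under 300 bases (17.6%), against 18.9% of all unnamed, 3.33% of the named set and 5.18% of all coding sequences. Of the 125, 9 lay within 30000 bases of a chromosome end (7.2%, against 6.51% of all, 13.7% of all unnamed and 10.3% of the named set). In the genome 49 of 125 (39.2%) lay next to a coding sequence past the same thresholds, named or not, against 37.8% of the named set and 22.8% of all. Named neighbours past the thresholds formed 39 pairs with 36 of the frames. The neighbour had the larger ratio of 1.5 h to 0 h in 20 pairs and the frame in 19. Coding sequences that overlap a frame, such as PRM10, GLK1 and ECM12, were not counted in these pairs. The neighbours with the largest ratios were SIP18 beside YMR175W-A, then HSP12 (a membrane-protecting stress protein, 110), which starts 292 bases from YFL015C (6.18) in the divergent direction, PHM7 (34.3) beside YOL085C (2.88) and SPS100 (33.5) beside YHR138C (5.12). In the other direction, YHR033W (14.9) lies beside PIH1 (2.25), YJL107C (15.1) beside IME2 (3.11) and YNL195C (15.7) beside SLZ1 (8.59). PRM10, which overlaps YJL107C, had the larger ratio of that pair, at 17.8.

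AGGGG divides the frames as follows. Of the 66 with none, 59 rose from 0.5 h to 1 h with a median log2 fold change of 1.13, and of the 50 with 1 copy, 47 rose with a median of 1.47. The 9 with at least 2 copies had 8 that rose and a median of 1.29. These medians are descriptions, with no test between them, and 32.9% of all tested were called higher from 0.5 h to 1 h.

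YBR285W and YCL048W-A were also among the 12 frames with the largest ratios, at 12.6 and 12.8. YBR285W went from 3.02 and 4.57 CPM at 0 h to 43.7 and 51.9 at 1.5 h, and YCL048W-A from 2.56 and 2.51 to 36.9 and 28.0.

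For scale, the 27 stress genes outside the frames had ratios of 1.5 h to 0 h from 1.53 for the chaperone gene HSP104 to 164 for SIP18, with a median of 16.5, against a median of 3.24 over the frames. The ratio was 124 for the glycerol symporter gene STL1, 56.2 for the hydrophilin gene GRE1, 31.2 for the catalase gene CTT1 and 12.9 for GPD1. YML131W at 49.0 lay between CTT1 and GRE1, and the ratios of YLR012C and YMR175W-A, which rest on few reads at 0 h, were above that of GRE1.

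At the edges of the rule, the frames just inside the fold threshold were YOL163W at 2.02 times, YNL193W at 2.03 and YJR149W at 2.04, and just outside were YBR138C at 1.99, YDR248C at 1.98 and YMR114C at 1.97. Just inside the level threshold were YOR186W at 10.1 CPM, YOR034C-A at 10.2 and YOL085C at 10.6, and just outside were YMR244W at 9.84, YLR111W at 9.77 and YLR307C-A at 9.76. With library totals alone in place of TMM 197 frames would meet the rule.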

How the data were processed

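RNA was sequenced from 10 libraries, 5 times with 2 replicates each. The deposited table gave, per the file headers, a raw read count per coding sequence and library. Of these estimated counts, 2.77% ended in 0.5, as the authors deposited them, and were rounded for tests. Coding lengths, another deposited column, gave levels per kilobase. Genome build R64 stands in the submitters' processing notes. Which aligner and counting tool were run, and whether strand was used, was not given in the sources used here. The table's 1302 gene and mRNA lines and 4693 identical second copies were left out. Positions of 5977 of 5989 coding sequences (885 of the 890 unnamed) matched the R64 reference.

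Counts were tested with edgeR 4.0.16 (quasi-likelihood, two-sided, filterByExpr, TMM factors of 0.8765 to 1.1613, time as the only term, all 10 libraries), which tested 5943 coding sequences and left out 46. The biological coefficient of variation was 4.05%. SE is the absolute log2 fold change over the square root of F. DESeq2 1.42.0, other scalings, no filter, the replicate block, fewer libraries and other thresholds were tried as alternatives. The fitting script was tested on simulated data. Near-identical stretches were found with BLAST 2.17.0 (at least 95% identity over 50 bases and 25% of the length). Promoters and coding sequences are RefSeq R64. Intervals and floors (3 reads) cover counting error only.

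Per the design text, a and b are replicate time series, so libraries of a letter may share an experiment. Their deviations from the time means correlated at -0.11 to 0.31 over 5613 coding sequences. The members and lists were chosen with earlier results of these data known. The text names the 12 highest frames by level and by ratio, the 5 largest rises and falls per contrast, those near a threshold, with overlaps or copies, or of fixed families; other frames were named after their values were seen.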

Additional observations from a re-analysis of the deposited data

How the results depend on the processing

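The direction of called frames did not turn under any alternative run. Of the called frames, 103 to 114 of 114 kept their call from 0.5 h to 1 h, 87 to 97 of 97 from 1 h to 2 h and 115 to 117 of 117 from 0.5 h to 2 h. Leaving out 1 library at a time gave 103 to 114 higher and 0 lower at the first step, 80 to 88 higher and 6 to 11 lower at the second, and 115 to 117 higher and 0 to 1 lower over both. The frames called lower from 1 h to 2 h numbered 10, but 6 with library totals alone, 6 with DESeq2 and 5 without the ribosomal DNA region, which was added after seeing the data. Those called lower from 0.5 h to 2 h numbered 1, but 2 with DESeq2 size factors, 0 with library totals alone and 2 with only the libraries of both times. Library totals alone shifted the median of all tested by 0.29 from 1 h to 2 h and by 0.36 from 0.5 h to 2 h, and turned YLR154C-G over the last interval to 0.29. The rule gave 125 frames, but 197 with library totals alone, 199 at 1.5-fold and 48 at 4-fold. With the replicate block, 114 frames were higher from 0.5 h to 1 h, 88 were higher and 11 lower from 1 h to 2 h, and 116 were higher and 1 lower from 0.5 h to 2 h, and 113 of 114, 97 of 97 and 117 of 117 calls were kept. The cause of these shifts was not tested. At 0 h the depth allows no level under 0.64 to 0.65 CPM, taken before TMM scaling, to be told from 0.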
